A study of Mus musculus with 12 samples.

Results

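The 2 H3K27me3 peak lists of replicate 1 were set against the 2 lists of replicate 2, to find which Polycomb calls came back. Each replicate number had 1 list from cortical interneurons (CINs) and 1 from the other cortical cells (non-CINs). Peaks 500 bp or less apart were merged in each list, and merged peaks of the 4 lists that overlapped by at least 1 bp were joined into 59712 regions. Of these, 6558 regions (11%) were in both replicate 1 lists and neither replicate 2 list, and are called replicate 1 only. Another 4447 regions (7.45%) were in both replicate 2 lists and neither replicate 1 list, and are called replicate 2 only. A further 7865 regions (13.2%) met all 4 lists with at least 1 bp common to all of them, and are called 4-list domains. The 11005 regions of the first 2 sets are the members described here. The rule chose them by presence, so their number, length and fold enrichment are given as descriptions.

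Cerebral cortex was taken from *Gad67-GFP* heterozygote pups at postnatal day 2, from a mixed stock crossed out to CD-1 mice, and tissue of 2 to 3 litters was pooled for a sample. FACS collected the GFP+ cells as CINs and, separately, the GFP- cells as non-CINs. MNase-digested native chromatin, which is not cross-linked, was precipitated with antibodies against H3K27me3 or H3K27ac. The series has 12 samples, 4 for H3K27me3, 4 for H3K27ac and 4 inputs, and each mark has 2 replicates of each population. GFP is driven from the *Gad67* locus, so the GFP- cells mix glutamatergic neurons, glia and other types. Mice of either sex were used in the study, and the sex of the pups in each pool is not given in the sources used here. The sorted populations were checked on H3K27ac. Of 6 interneuron genes, *Gad1*, *Gad2*, *Dlx1*, *Dlx2* and *Slc32a1* had 3810 to 12881 bp of H3K27ac in each CIN list and 0 to 652 bp in each non-CIN list, while *Lhx6* had 0 bp in all 4. Among glutamatergic markers, *Slc17a7* and *Neurod2* had 0 bp in every list, *Neurod6* had 750 bp (replicate 1) and 450 bp (replicate 2) in the CIN lists against 0 and 804 bp in the non-CIN lists, and *Emx1* had 3892 and 1844 bp against 4074 and 5015 bp. The glial genes *Aldh1l1* and *Olig2* were marked in all 4 lists, over 13283 to 25918 bp and 6590 to 8221 bp. Each had more in both non-CIN lists than in either CIN list. The microglial gene *Aif1* and the endothelial gene *Cldn5* had 0 bp in every list, while *Csf1r*, also microglial, had 362 to 1310 bp and *Pecam1*, also endothelial, 7251 to 13606 bp.

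H3K27me3 is written by Polycomb repressive complex 2, whose catalytic subunit is EZH1 or EZH2, and is read by Polycomb repressive complex 1. In the developing brain it covers the promoters and bodies of silent developmental regulators, most of them rich in CpG dinucleotides, in broad domains. It is also laid down along the inactive X chromosome of female cells after *Xist* RNA coats that chromosome. A region called in a peak list is a stretch where the reads of the ChIP sample exceeded those of the input, so a weak broad domain can be called as many short peaks or as none.

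The sequences of 10 regions are given as examples of the 3 sets, with each CG dinucleotide in capitals. They are the 200 bp at the centre of the regions with the highest fold percentiles of each set, of the longest 4-list domains and of the longest region of each replicate set. All are the plus strand of mm10, read from the RefSeq GRCm38.p6 sequence. In these replicate 1 only regions the central 200 bp held 1 to 3 CG, in the replicate 2 only regions 2 to 6, and in the 4-list domains 3 to 25. Being the strongest or longest, they do not stand for their sets. Over all members, the median CG per 100 bp was 0.667 in both replicate sets and 1 in 4-list domains. The first replicate 1 only stretch lies in an intron of *Cfap52*, the second between genes, 17844 bp from the light chain gene *Myl10*, and the third in an exon of *Zfp606*.
Cfap52, chr11:67931909-67932108: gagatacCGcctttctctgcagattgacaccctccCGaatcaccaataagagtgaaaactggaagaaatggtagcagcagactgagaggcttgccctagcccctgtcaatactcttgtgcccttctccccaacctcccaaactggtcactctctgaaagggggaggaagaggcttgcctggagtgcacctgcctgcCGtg
near Myl10, chr5:136674962-136675161: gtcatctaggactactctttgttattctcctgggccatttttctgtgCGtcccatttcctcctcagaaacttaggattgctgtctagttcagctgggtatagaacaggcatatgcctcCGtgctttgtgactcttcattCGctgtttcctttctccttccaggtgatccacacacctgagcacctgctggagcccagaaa
Zfp606, chr7:12492593-12492792: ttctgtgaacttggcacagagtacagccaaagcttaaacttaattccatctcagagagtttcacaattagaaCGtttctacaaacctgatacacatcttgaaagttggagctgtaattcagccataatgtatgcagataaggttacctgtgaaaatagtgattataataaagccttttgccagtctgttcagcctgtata
The replicate 2 only stretches lie between genes at 4865 bp from the major histocompatibility gene *H2-Q1*, in an intron of *Cfap61*, and in an intron of *Mid1* on X.
near H2-Q1, chr17:35330530-35330729: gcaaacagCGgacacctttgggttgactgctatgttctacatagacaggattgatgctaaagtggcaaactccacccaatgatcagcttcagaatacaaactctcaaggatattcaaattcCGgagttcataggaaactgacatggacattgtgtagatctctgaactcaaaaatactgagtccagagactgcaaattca
Cfap61, chr2:145956210-145956409: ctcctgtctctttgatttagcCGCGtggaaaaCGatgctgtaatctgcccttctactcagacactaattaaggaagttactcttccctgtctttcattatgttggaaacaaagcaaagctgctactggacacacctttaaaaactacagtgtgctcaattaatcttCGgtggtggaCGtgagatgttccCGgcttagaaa
Mid1, chrX:169851421-169851620: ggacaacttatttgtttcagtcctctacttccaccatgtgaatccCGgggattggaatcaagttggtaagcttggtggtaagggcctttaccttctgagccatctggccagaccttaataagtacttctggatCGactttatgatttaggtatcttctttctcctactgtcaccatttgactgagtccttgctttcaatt
The 4-list stretches lie in a copy of the ribosomal RNA gene on chromosome 17, in the domain over *Hand2*, and in the *Hoxc* and *Hoxa* clusters. The ribosomal DNA copy is one of many in the genome, so the reads called there cannot be assigned to it alone.
ribosomal RNA gene, chr17:39846611-39846810: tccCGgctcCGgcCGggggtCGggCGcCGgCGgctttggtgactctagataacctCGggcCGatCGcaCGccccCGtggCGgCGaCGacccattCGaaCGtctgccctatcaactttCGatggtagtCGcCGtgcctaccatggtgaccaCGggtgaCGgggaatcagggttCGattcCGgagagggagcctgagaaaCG
Hand2 domain, chr8:57331363-57331562: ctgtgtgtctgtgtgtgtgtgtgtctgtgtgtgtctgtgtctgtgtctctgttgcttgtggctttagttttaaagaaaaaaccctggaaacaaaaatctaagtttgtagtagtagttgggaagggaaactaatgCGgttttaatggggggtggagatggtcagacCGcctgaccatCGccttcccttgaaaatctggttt
Hoxc cluster, chr15:102983995-102984194: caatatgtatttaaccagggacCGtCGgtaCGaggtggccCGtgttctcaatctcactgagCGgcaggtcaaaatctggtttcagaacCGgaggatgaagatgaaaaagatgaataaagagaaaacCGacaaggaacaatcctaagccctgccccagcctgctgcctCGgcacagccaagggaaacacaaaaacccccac
Hoxa cluster, chr6:52212588-52212787: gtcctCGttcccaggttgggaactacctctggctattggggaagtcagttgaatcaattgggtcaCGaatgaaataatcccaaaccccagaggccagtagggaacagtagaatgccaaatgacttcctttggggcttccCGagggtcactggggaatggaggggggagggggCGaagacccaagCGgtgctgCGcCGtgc

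Replicate 2 lists held fewer but longer merged peaks than replicate 1 lists. There were 30416 merged peaks in CIN replicate 1 and 35980 in non-CIN replicate 1, against 26179 and 30413 in replicate 2. Median length was 447 and 442 bp in the replicate 1 lists and 760 and 708 bp in the replicate 2 lists. Merged peaks of 5 kb or more numbered 1219 and 1398 in replicate 1 and 1888 and 2156 in replicate 2. The lists covered 36.9 and 42.3 Mb in replicate 1, and 47.5 and 53.6 Mb in replicate 2. For each of these 4 values the lists of the 2 replicate numbers did not overlap, though the peak numbers of CIN replicate 1 and non-CIN replicate 2 were nearly equal. With 2 lists against 2, a two-sided exact permutation test cannot give p below 0.333, which is the p of each of these differences, so none could be called. Reads per list were not analysed here, so depth and replicate number cannot be told apart.

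Regions followed the replicate number more often than the cell population. Among the 13342 regions found in exactly 2 lists, 11005 (82.5%) joined the 2 lists of one replicate number, 1775 (13.3%) joined the 2 lists of one population, and 562 (4.21%) shared neither. The CIN lists alone shared 623 regions and the non-CIN lists alone 1152. Regions in a single list were the most frequent, at 32566 (54.5%), and those in exactly 3 lists numbered 4859 (8.14%). Replicate 1 only regions summed to 5.28 Mb and replicate 2 only regions to 4.62 Mb, against 42.2 Mb in 4-list domains and 76.6 Mb in all regions. By length, 4-list domains held most of the called territory, although they were a minority by number.

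**Figure D1:**
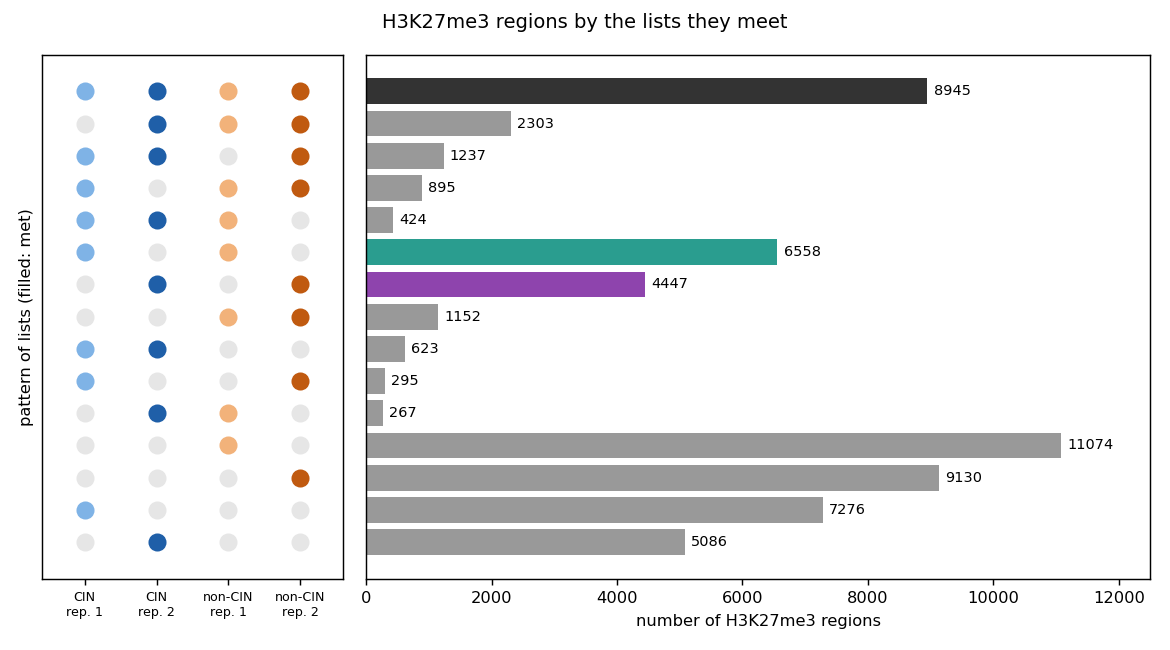
Number of H3K27me3 regions (x axis) for each of the 15 combinations of the 4 lists, with the lists met shown as filled circles at the left. Replicate 1 only (6558, green) and replicate 2 only (4447, purple) exceed the other 4 combinations of 2 lists (267 to 1152). The black bar counts all 8945 regions met by the 4 lists, of which 1080 had no base common to all.

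Members of the replicate sets were short, with a median length in replicate 1 only regions of 626.5 bp (quartiles 453 and 940 bp) and in replicate 2 only regions of 859 bp (quartiles 567 and 1311.5 bp), while 4-list domains had a median of 3592 bp. The longest member was 8763 bp in replicate 1 and 7108 bp in replicate 2. Fold enrichment, the ratio of ChIP to input signal, was ranked as a percentile of all merged peaks of the same list. The median percentiles of replicate 1 only regions were 48.8 in the CIN list and 52.5 in the non-CIN list, near the middle of their lists. Those of replicate 2 only regions were lower, at 36.1 in CINs and 42.7 in non-CINs. In 4-list domains the medians were 78.8 and 82.0 in replicate 1 and 83.2 and 85.5 in replicate 2. Of replicate 1 only regions, 2.68% in CINs and 4.45% in non-CINs lay in the top 10% of their list, and of replicate 2 only regions 0% and 0.112%. By this fold rank, the strongest calls found in one replicate number alone were mostly those of replicate 1. By significance the sets were closer in size, with 1924 replicate 1 only and 1816 replicate 2 only regions at −log10 q of at least 4.

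The distance to the nearest call of the other replicate number differed between the sets. Of replicate 2 only regions, 3394 (76.3%, 95% Wilson interval 75–77.5%) were within 10 kb of a replicate 1 peak, 1071 (24.1%) within 1 kb and 523 (11.8%) within 500 bp, and the median distance was 2940 bp. For replicate 1 only regions the counts were lower, with 3104 (47.3%, 46.1–48.5%) within 10 kb of a replicate 2 peak, 737 (11.2%) within 1 kb, 364 (5.55%) within 500 bp and a median distance of 11489 bp. The replicate 1 lists held more merged peaks to be near, and no share expected from that was computed. Just outside the rule, 895 and 424 regions met both replicate 1 lists and a single replicate 2 list, from non-CINs and CINs respectively. For replicate 2, these regions numbered 2303 with the added replicate 1 list from non-CINs and 1237 with that from CINs. Intervals here and below count regions as independent, which neighbouring regions are not, and cover counting error only.

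Long merged peaks came back in the other replicate of their own population and short ones mostly did not. Among merged peaks of 5 kb or more, 98.8% of CIN replicate 1, 99.4% of CIN replicate 2, 99.3% of non-CIN replicate 1 and 99.5% of non-CIN replicate 2 were met. From 2 to 5 kb these shares were 93.4%, 90.3%, 95.3% and 91.7% in the same order. Below 300 bp they fell to 25.7%, 14%, 24.6% and 14.5%. An overlap of 1 bp sufficed, which a longer peak reaches more easily, and no share expected from length was computed. Fold enrichment separated the replicate numbers more. In bin 9 of 10 equal bins of fold enrichment, 92.7% and 89.7% of replicate 2 peaks in CINs and non-CINs were met in replicate 1, against 62.2% and 62.3% of replicate 1 peaks met in replicate 2. In bin 10, that of the highest fold, these shares were 99.8% and 98.8% for replicate 2 peaks and 89.3% and 86.7% for replicate 1 peaks. A high fold in replicate 2 therefore went with a call in replicate 1 more often than the reverse. The bins were not matched for length, and merged peaks of replicate 2 were longer. In bin 1 the order was turned, with 15.8% and 14.9% of replicate 2 peaks met and 30.2% and 31.2% of replicate 1 peaks.

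**Figure D2:**
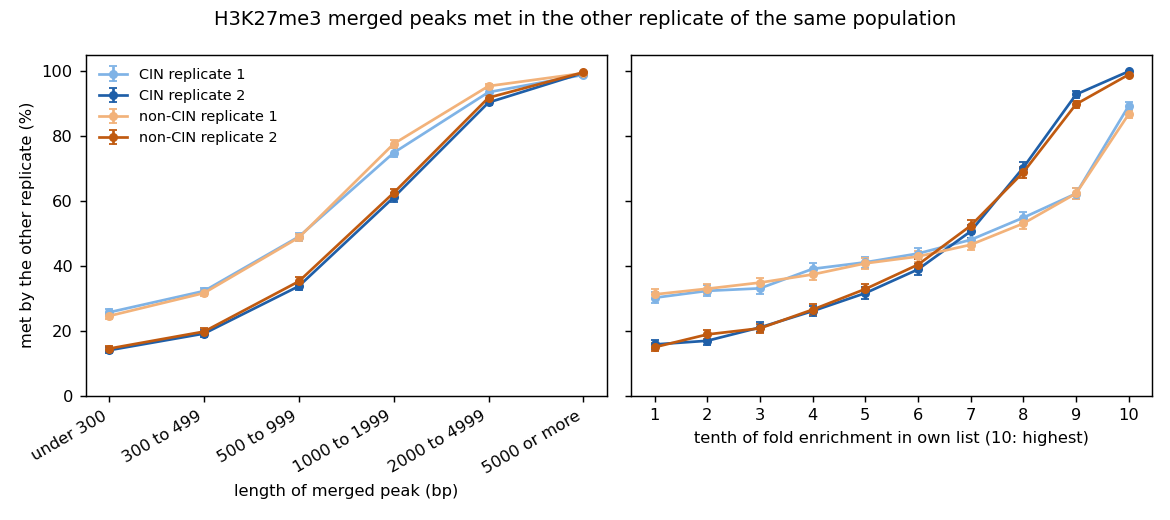
Share of merged H3K27me3 peaks met by at least 1 bp in the other replicate of the same population (y axis, %), by peak length in bp (left) and by bin of fold enrichment in the own list, from 1 (lowest) to 10 (right), with 95% Wilson intervals. All 4 lists reach 98.8% or more at 5 kb, while in bin 9 of fold replicate 1 lists stay at 62.2% and 62.3% and replicate 2 lists reach 92.7% and 89.7%.

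Few replicate 1 only regions were at promoters. With a promoter defined on GENCODE vM21 as the 1 kb before a start site and the 100 bp after it, 1.95% of replicate 1 only regions (1.64–2.32%) were centred in one, below the 2.54% of the genome that promoters take up. Replicate 2 only regions were centred in a promoter in 5.08% (4.47–5.77%), and 4-list domains in 10.6% (9.91–11.3%), against 4.52% of all 59712 regions, with replicate 1 only regions below that share. Regions in a single replicate 1 list were low too, at 2.57% (CIN) and 2.50% (non-CIN), against 5.58% and 3.41% in single replicate 2 lists. From 500 bp to under 1 kb, 6.18% (5.16–7.39%) of replicate 2 only regions and 3.96% (3.62–4.33%) of all regions were centred in a promoter. Introns held the centres of 32.3% of replicate 1 only and 40.5% of replicate 2 only regions, and exons 3.31% and 3.17%. Centres between genes came to 62.2% and 51.3%, against 39.9% for 4-list domains and 52.7% of the genome. By any overlap, 37.9% of 4-list domains met a promoter, 9.65% of replicate 2 only regions, 3.54% of replicate 1 only regions and 10.1% of all regions. These shares moved with length: from 500 bp to under 1 kb they were 9.49%, 9.27%, 3.05% and 6.01% in the same order.

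Replicate 2 only regions lay nearer than replicate 1 only regions to the domains that all lists shared. The median distance to the nearest 4-list domain was 24475 bp for replicate 2 only regions and 54138.5 bp for replicate 1 only regions. Within 1 kb of such a domain lay 10.7% of replicate 2 only regions (9.83–11.6%), 2.99% of replicate 1 only regions (2.6–3.43%), and 0.546% of the genome outside the domains. Within 10 kb these shares were 36.7% (35.3–38.2%), 20.3% (19.4–21.3%) and 4.30%. Both shares were above that of the genome, but so were those of other calls. Other regions found in exactly 2 lists were within 10 kb in 30.5% (CIN lists), 41.5% (non-CIN lists), 42.4% (CIN replicate 1 and non-CIN replicate 2) and 44.9% (CIN replicate 2 and non-CIN replicate 1), so replicate 2 only regions lay within the range of these sets and replicate 1 only regions below it. Low shares were found in replicate 1 calls more widely, since regions in a single list were within 10 kb in 16.6% (CIN) and 19.6% (non-CIN) for replicate 1 and 31.2% and 33.4% for replicate 2. Leaving out X brought the median of replicate 2 only regions to 21346 bp.

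The sequence under the sets differed in soft-masked content. Soft-masked bases are those that the RefSeq sequence itself marks by lower case, which the stretches printed above do not show. Which kinds of repeat this masking marks was not checked. In the central 300 bp, the median share of such bases was 31.3% in replicate 1 only regions, 11% in replicate 2 only regions and 11.3% in 4-list domains. At least 50% of these bases were masked in 27.3% (26.3–28.4%), 6.57% (5.88–7.33%) and 9.64% (9.01–10.3%) of the regions. Over all regions this share was 15.6%, and the genome as a whole was 36.4% masked. Among members from 500 bp to under 1 kb alone, 26.8% of replicate 1 only and 4.69% of replicate 2 only regions passed that share, so the difference between them was as large at equal length. The 4-list domains of that length were at 16.04% and all regions at 16.3%, so their likeness to replicate 2 only regions did not hold there. The whole lists differed by replicate number as well, with 18.3% and 17.3% of merged peaks of replicate 1 in CINs and non-CINs past it and 7.46% and 8.12% of replicate 2 (exact permutation p = 0.333, the smallest possible). H3K27ac lists differed little between the replicate numbers in this respect, at 1.21 to 1.49%. CG content was low in both sets. The observed over expected CG ratio had a median of 0.130 in replicate 1 only, 0.19 in replicate 2 only and 0.238 in 4-list domains, and it was at least 0.6 in 1.05%, 2.65% and 12% of these regions, against 3.62% of all regions. From 500 bp to under 1 kb the share of 4-list domains was 5.46%, that of replicate 2 only regions 2.70% and that of all regions 2.33%, so this contrast too moved with length.

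**Figure D3:**
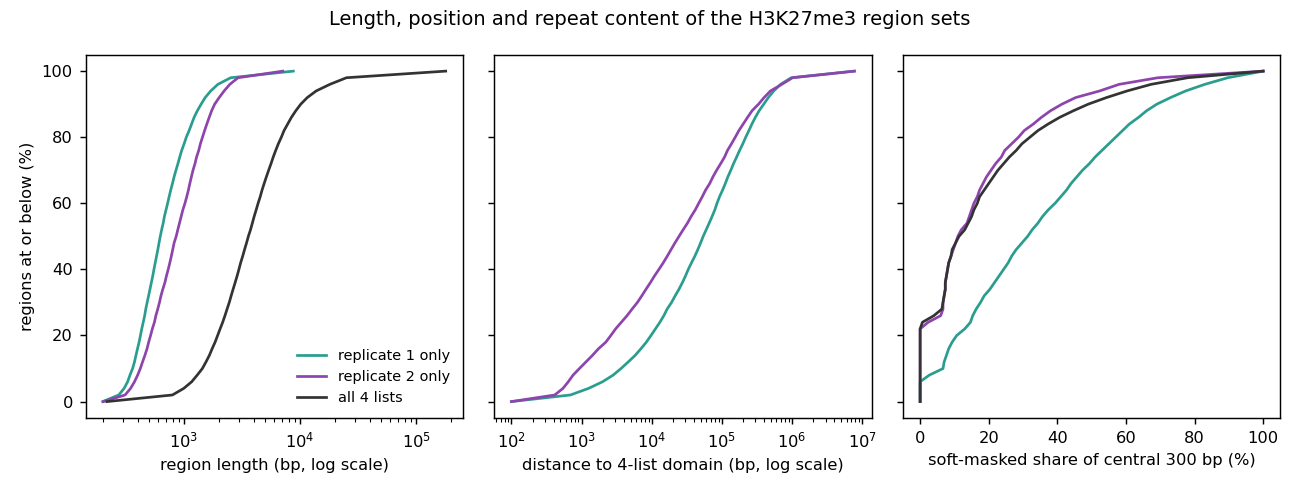
Cumulative share of regions (y axis, %) by length in bp, by distance in bp to the nearest 4-list domain (values under 100 bp drawn at 100) and by soft-masked share of the central 300 bp (%), for replicate 1 only (green), replicate 2 only (purple) and 4-list domains (black). Replicate 1 only regions lie farther from the domains (median 54138.5 against 24475 bp), and their masked share (median 31.3%) stands apart from the other sets (11% and 11.3%).

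The H3K27ac lists, which took no part in choosing the members, met few replicate 1 only regions. The H3K27ac list of CIN replicate 1 met 0.823% of replicate 1 only regions, that of CIN replicate 2 0.579%, that of non-CIN replicate 1 0.701% and that of non-CIN replicate 2 0.595%. For replicate 2 only regions the shares in the same order were 8.23%, 4.14%, 5.42% and 3.44%, and for 4-list domains 20.8%, 10.8%, 15.3% and 7.95%. Over all 59712 regions they were 7.13%, 4.04%, 5.20% and 3.29%. Without regard to length, replicate 2 only regions were thus close to the share of all regions in each list, and replicate 1 only regions below it in every list. Regions in a single replicate 1 list were also seldom met. At least 1 H3K27ac list met 1.94% (CIN) and 2.70% (non-CIN) of them, against 10.2% and 5.25% for single replicate 2 lists. The higher shares of 4-list domains went with their length. From 500 bp to under 1 kb, 9.83% of 4-list domains, 8.72% of replicate 2 only and 0.904% of replicate 1 only regions were met by at least 1 H3K27ac list, against 24.5%, 9.71% and 0.930% at any length. Over all regions of that length the share was 5.77% (5.36–6.21%), below that of replicate 2 only regions (7.51–10.1%). In each set the replicate 1 H3K27ac lists, which held more peaks, met the larger share (exact permutation p = 0.333, the smallest possible).

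The X chromosome separated the replicate numbers more than any autosome. H3K27me3 covered 464 kb of X in CIN replicate 1 and 509 kb in non-CIN replicate 1, against 1710 and 1814 kb in replicate 2. The ratio of replicate 2 to replicate 1 was 3.68 in CINs and 3.57 in non-CINs, while over the 19 autosomes it ran from 1.07 to 1.37 in CINs and from 1.07 to 1.35 in non-CINs. In both populations the lowest autosome was 18 and the highest 3. Of replicate 2 only regions, 488 (11%, 10.1–11.9%) were on X, and of replicate 1 only regions 52 (0.793%, 0.605–1.04%). X held 3.93% of all regions, 1.89% of 4-list domains and 6.18% of the genome. Regions found in a single replicate 2 list also leaned to X, with 8.65% in CINs and 7.04% in non-CINs, against 2.02% and 1.43% in single replicate 1 lists. Of the X peaks of replicate 2, 20% in CINs and 18.8% in non-CINs were met in replicate 1, and 47.9% and 48.0% of peaks elsewhere.

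H3K27ac differed less between the replicate numbers on X. It covered 924 and 831 kb of X in replicate 1 and 837 and 928 kb in replicate 2, in CINs and non-CINs respectively, and these values overlapped. As a share of all H3K27ac length, X took 1.57% and 1.56% in replicate 1 and 1.95% and 2.02% in replicate 2, without overlap (exact permutation p = 0.333, the smallest possible), against 1.26% and 1.20% and 3.6% and 3.39% for H3K27me3. Its ratio of replicate 2 to replicate 1 on X was 0.906 in CINs and 1.12 in non-CINs, above the autosomes of the same population, which ran from 0.703 to 0.752 and from 0.835 to 0.874. H3K27me3 on X differed between the replicate numbers in the same direction and by a like factor in both populations. The part of the sex make-up of the pools was not tested.

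**Figure D4:**
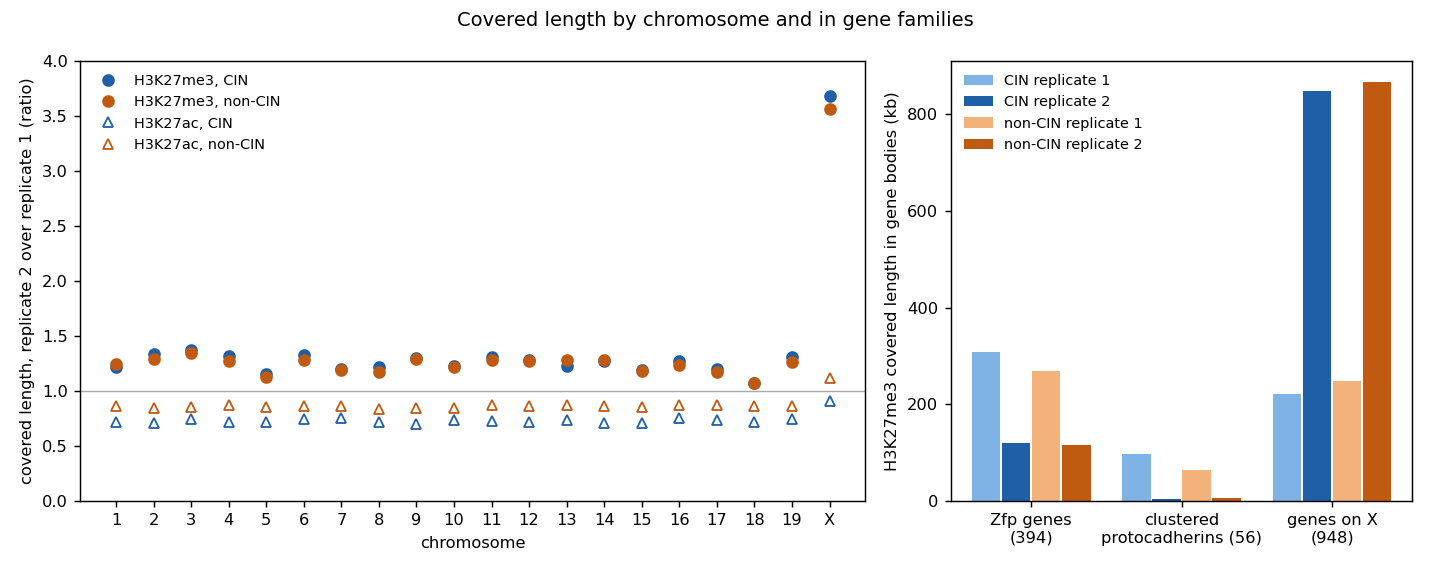
Left, covered length in replicate 2 over that in replicate 1 (ratio, y axis) for each chromosome, for H3K27me3 (filled circles) and H3K27ac (open triangles) in CINs (blue) and non-CINs (orange): the ratio for X is 3.68 and 3.57 for H3K27me3, and all autosomes lie at or below 1.37. Right, H3K27me3 covered length (kb) inside the bodies of 394 *Zfp* genes, 56 clustered protocadherin genes and 948 genes on X in each list, where the first 2 families are covered more in replicate 1 and X genes more in replicate 2.

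Replicate 2 only regions on X lay in clusters. In bins of 1 Mb, set after the data were seen, replicate 2 only regions fell in 1425 bins, and the 6 fullest were all on X. The first, chrX:103000001-104000000, holds *Xist*, with 54 replicate 2 only and 3 replicate 1 only regions, and its covered length was 44.4 and 45.6 kb in the replicate 1 lists and 232 and 230 kb in the replicate 2 lists. The next 3 bins, which begin at 152000001, 94000001 and 169000001, held 50, 46 and 46. *Xist* itself, the RNA that starts X inactivation, was free of H3K27me3 in all 4 lists and held 465 and 464 bp of H3K27ac in the replicate 1 lists and 1304 and 629 bp in the replicate 2 lists. Its antisense partner *Tsix* was covered by H3K27me3 over 7801 and 9936 bp in replicate 1 and 16064 and 16460 bp in replicate 2.

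**Figure D5:**
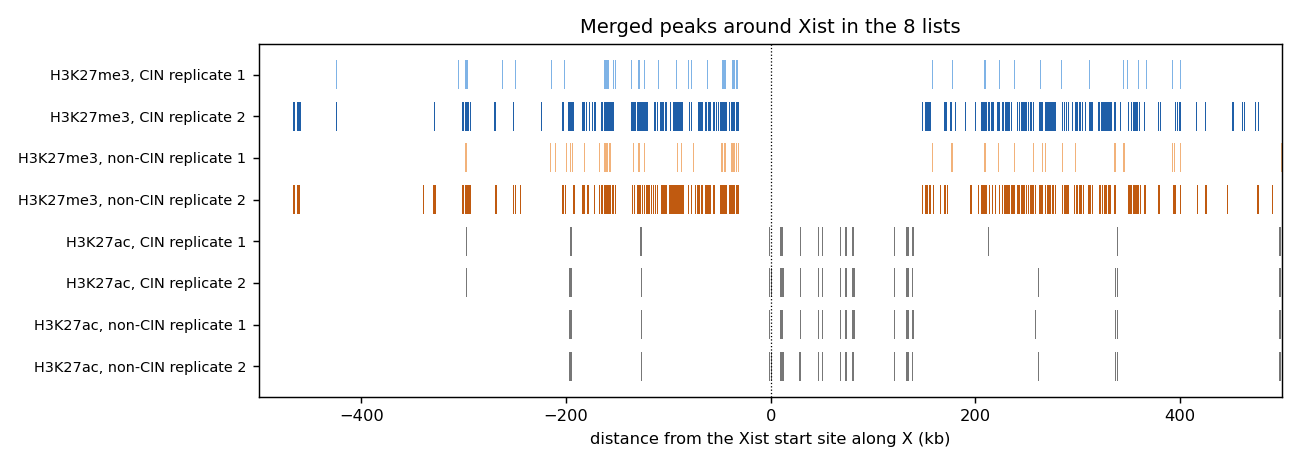
Merged peaks of the 4 H3K27me3 lists (coloured) and the 4 H3K27ac lists (grey) within 500 kb of the *Xist* start site, by distance along X in kb. Replicate 2 lists show dense H3K27me3 on both sides where replicate 1 lists show scattered short peaks, all 4 leave the stretch around *Xist* free, and most H3K27ac peaks there are in all 4 lists, with some short ones in single lists.

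Single X genes showed the difference inside their bodies, which were covered in part. *Mid1*, an E3 ubiquitin ligase gene that spans the pseudoautosomal boundary in the reference strain, met 37 replicate 2 only regions, the most of any gene. Its body was covered over 10025 bp in CIN replicate 1 and 5555 bp in non-CIN replicate 1, against 147545 and 110705 bp in replicate 2. *Iqsec2*, which encodes a synaptic exchange factor, went from 2413 and 5933 bp to 48079 and 47302 bp. The deubiquitinase gene *Usp9x* went from 275 and 0 bp to 11300 and 14406 bp, and the cohesin gene *Smc1a* from 913 and 654 bp to 10292 and 12608 bp. At these 4 genes both replicate 2 lists covered more than both replicate 1 lists. They were named for these values, so no test is given. H3K27ac over the 4 genes was present in all 4 lists, for example 1506 and 1851 bp in replicate 1 and 1423 and 2524 bp in replicate 2 at *Smc1a*. Of 948 protein-coding genes on X, 74 (7.81%, 6.26–9.69%) had a replicate 2 only region in the body and 12 (1.27%, 0.726–2.2%) a replicate 1 only region. For the 20963 genes elsewhere these shares were 5.10% and 5.67%, and 15.1% had a 4-list domain in the body, against 6.22% on X.

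Zinc finger genes and clustered protocadherins held replicate 1 only regions more often than other genes did. Both families were singled out after their values were seen. Zinc finger genes named *Zfp* encode DNA-binding proteins, many of them with a KRAB repressor domain, and lie in clusters of related copies. Of 394 such genes, 72 (18.3%, 14.8–22.4%) had a replicate 1 only region in the body, against 1200 of 21911 protein-coding genes (5.48%), while 5 (1.27%) had a replicate 2 only region, against 5.22% of all. Within the *Zfp* bodies H3K27me3 covered 308 kb in CIN replicate 1 and 269 kb in non-CIN replicate 1, against 120 and 115 kb in replicate 2. Over all protein-coding bodies the order was the reverse, with 15785 and 17818 kb in replicate 1 and 21225 and 23197 kb in replicate 2. Of the 97 replicate 1 only regions in *Zfp* bodies, 68 (70.1%) were centred in an exon, against 8.41% of the 1819 in any protein-coding body. Of the 249 replicate 1 only regions of 2 kb or more, 42 (16.9%, 12.7–22.0%) met a *Zfp* gene, and of the 362 replicate 2 only regions of that length 1 did (0.276%).

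*Zfp606* was covered over 8213 bp in CIN replicate 1 and 7327 bp in non-CIN replicate 1, and 0 bp in both replicate 2 lists. The same absence from replicate 2 was seen at *Zfp68* (7484 and 5798 bp in replicate 1), *Zfp2* (7084 and 6125 bp), *Zfp873* (7386 and 6357 bp) and *Zfp810* (5881 and 5446 bp). *Zfp286* was met by all 4 lists, with 11029 and 8897 bp in replicate 1 and 3576 and 3964 bp in replicate 2. The exons of these genes share sequence with related copies, so reads there may be split among copies, and the authors' filter on mapping quality removes reads that match several places equally well. Reads that match these exons were not compared between the lists here.

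Clustered protocadherins are neuronal adhesion genes whose many variable exons each have a promoter of their own. Of 56 such genes, 31 (55.4%, 42.4–67.6%) had a replicate 1 only region in the body and 11 (19.6%) a replicate 2 only region. Many of these genes overlap in the annotation and share regions, so that the 31 genes rest on 28 regions and the 11 on a single one. Their bodies, counted once where they overlap, were covered over 96.1 kb in CIN replicate 1 and 64.0 kb in non-CIN replicate 1, against 2.95 and 4.84 kb in replicate 2. The bin of 1 Mb that holds them, chr18:37000001-38000000, was the fullest of replicate 1 only regions, with 31, beside 2 of replicate 2 only. The second, chr10:82000001-83000000, held 25, of which *AU041133* met 5, *Gm4924* and *Zfp873* 4 each and *Zfp938* 2.

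Among the 12 replicate 1 only regions with the highest fold percentiles inside a gene or promoter, 4 lay in *Zfp* genes, *Zfp606*, *Zfp958*, *Zfp873* and *Zfp68*. The first of the 12 was a region of 1280 bp in an intron of *Cfap52*, a gene of motile cilia, at percentiles 96.3 of the CIN list and 95.2 of the non-CIN list (chr11:67931369-67932648). The CIN peak there was only 211 bp long and the non-CIN peak 1280 bp. In *Ssc5d*, a scavenger receptor gene, a region of 610 bp was at percentiles 94.6 and 94.4. *2610008E11Rik* had a region of 8563 bp, covered over 7970 bp in CINs and 8563 bp in non-CINs, at 540543 bp from any 4-list domain. The promoter shared by *3110070M22Rik* and *Tmem267* had a region of 601 bp that was also met by all 4 H3K27ac lists. Other regions of the 12 lay in *Pef1*, *Myo10* and *Tmem130*, and in the annotated body of *Fgfr2*. That body runs over chr7:130162451-133123350. So long a body may join transcripts of several genes, so this region may not belong to *Fgfr2*.

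None of the 12 strongest replicate 2 only regions inside a gene or promoter lay in a *Zfp* gene. The first was a region of 810 bp in *Cfap61*, another gene of motile cilia, at percentiles 83.7 of the CIN list and 89.3 of the non-CIN list. It was followed by *Cacna1d*, an L-type calcium channel gene, with 1912 bp covered in CINs and 951 bp in non-CINs, and *Slc2a3*, the neuronal glucose transporter gene, with 858 and 1002 bp. *H2-D1*, a major histocompatibility gene with close copies, had 1273 and 1284 bp, and *Cd40*, an immune receptor gene, 2020 and 2565 bp. In the metabotropic glutamate receptor gene *Grm4* a region of 2518 bp lay 292 bp from a 4-list domain, and in *Ascl4* one of 549 bp lay 756 bp from one. The 5 longest replicate 2 only regions, from 5162 to 7108 bp, were all on X, 3 of them in *Mid1*.

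A replicate 1 only region met the promoter of 79 of 21911 protein-coding genes (0.361%), a replicate 2 only region that of 295 (1.35%), and a 4-list domain that of 2538 (11.6%). These counts are of joined regions, whose ends may come from 1 list. Counted by the peaks themselves, 74 promoters were met by just both replicate 1 lists, 311 by just both replicate 2 lists and 2124 by all 4, and single lists alone met 109 and 178 for CIN and non-CIN replicate 1 and 249 and 261 for replicate 2. *Hox* genes set positional identity and are silent in cortex. Their median gene window, from 5 kb upstream to the gene end, was covered over 8488 bp in each of the 4 lists. Coverage cannot exceed the window, so equal values can reflect window length. Of 39 *Hox* genes, all had a promoter in a 4-list domain. Of 72 patterning transcription factor genes of other lineages, 70 (97.2%) did, and of 24 interneuron lineage transcription factor genes 22 (91.7%). For 55 genes of WNT, BMP, FGF and hedgehog ligands the number was 43 (78.2%), and for 31 pallial transcription factor genes 21 (67.7%). Smaller shares were found for 42 glutamate and GABA receptor genes (15, 35.7%) and 29 genes of Polycomb subunits and H3K27 demethylases (6, 20.7%). Of 1462 olfactory and vomeronasal receptor genes 5 (0.342%) did, and of 80 ribosomal protein genes none.

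The same lists gave 4 genes with a replicate 1 only promoter, the olfactory receptor genes *Olfr288*, *Olfr49*, *Olfr60* and *Olfr878*, which is 0.274% of that list and below the 0.361% of all genes. None of the 39 *Hox* or 72 patterning genes had a promoter met by a region of either replicate set. At the 0.361% and 1.35% of all genes, lists this small would hold few such genes or none. Replicate 2 only regions met, among others, the promoters of *Fgf11*, *Pcgf5*, *Grm7* and *Gabrq* and of 3 olfactory receptor genes, *Olfr1368*, *Olfr221* and *Olfr371*, which is 0.205% of that list and below the 1.35% of all genes. *Fgf11*, an intracellular FGF homologue, had a region of 473 bp at percentiles 63.0 of CIN replicate 2 and 80.9 of non-CIN replicate 2. *Pcgf5*, a Polycomb repressive complex 1 subunit gene, had one of 1193 bp at 42.9 and 10.3. *Gabrq*, a GABA receptor subunit gene on X, had one of 837 bp at 13.7 and 43.0.

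The longest 4-list domains, over the *Hox* clusters and *Nkx2-1*, had nearly the same extent in every list. The *Hoxc* cluster domain of 179603 bp (chr15:102894294-103073896) was covered over 178298 and 177625 bp in replicate 1 and 178721 and 178880 bp in replicate 2. The *Hoxa*, *Hoxb* and *Hoxd* domains, of 139350, 135346 and 134544 bp, followed. Next came domains over *Nkx2-1*, the regulator of the medial ganglionic eminence, at 101665 bp, *Pax3* at 93763 bp, *Zic1* and *Zic4* at 78939 bp, *Sntb2* at 64508 bp, *Gbx2* and *Asb18* at 57951 bp, and *Pax2* at 52990 bp. At *Nkx2-1*, replicate 1 covered 100133 and 98829 bp and replicate 2 covered 101366 and 98770 bp, in CINs and non-CINs. Among the patterning genes, *Gata4* had 46044 and 47286 bp in replicate 1 and 48605 and 49606 bp in replicate 2, while *Pax5*, a B cell and midbrain regulator, had 45834 and 60892 bp against 60801 and 73405 bp. Among the ligands, *Wnt8b* had 24369 and 24403 bp in replicate 1 and 24696 and 24738 bp in replicate 2, while *Wnt3a* had 16059 and 18879 bp against 25127 and 24148 bp. At *Gata4*, *Wnt8b* and *Wnt3a* both replicate 2 lists were above both replicate 1 lists, by less at *Gata4* and *Wnt8b* than at *Wnt3a*, while at *Pax5* the lists overlapped. The cortical gene *Foxp1* had 12275 and 7126 bp in replicate 1 and 35028 and 23606 bp in replicate 2, and the kainate receptor gene *Grik3* 23024 and 40756 bp and 29483 and 59748 bp. At *Grik3* both populations gained coverage in replicate 2, but the CIN list of replicate 2 stayed below the non-CIN list of replicate 1. Among the Polycomb genes, *Cbx8*, a reader of H3K27me3, was covered over 6056 and 6440 bp in replicate 1 and 6575 and 6223 bp in replicate 2, so that the lists overlapped.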

How the data were processed

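Native ChIP-seq peak lists for H3K27me3 and H3K27ac from sorted CINs and non-CINs were analysed, with 2 replicates per mark and population. Per the labels and the study's methods, reads were mapped by the authors (BWA 0.7.15, mm10) and filtered on mapping quality with SAMtools. The authors called broad peaks in each replicate against matched input with MACS2, without local background. The MACS2 version is 2.2.7 in the submitters' notes, and the study's methods name an earlier one. The deposited lists give a score, a fold enrichment (a ratio of ChIP to input) and −log10 p and −log10 q for each peak, all made by the authors with MACS2. Reads and depth were not analysed here, so precision rests on numbers of regions, and intervals are 95% Wilson intervals.

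Peaks 500 bp or less apart were merged per list, overlaps needed 1 bp, and values were compared over the 4 lists by a two-sided exact permutation test (Python 3.11.15, NumPy 2.4.6, SciPy 1.17.1, with bedtools 2.31.1 as a check on interval operations). Fold percentiles used all merged peaks of a list, and classes used the central base with GENCODE vM21. Named regions were the 12 with the highest lower percentile inside genes and the 5 longest of each replicate set, the 10 longest 4-list domains, genes of the lists whose promoter met a replicate set, and 2 to 4 genes with the most coverage per list. X genes, bins and both gene families were named after their values were seen. Members and lists were chosen with earlier results of these data known. Alternatives were another merging gap, thresholds on −log10 q and length, equal list sizes, other promoter windows and distances, and leaving out each list. Some items of these rules are not reported here.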

Additional observations from a re-analysis of the deposited data

Results flagged for a closer look

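The difference between replicate numbers had opposite signs in the 2 marks for 3 values, in both populations, and the difference between the marks was not tested. Covered length was higher in replicate 2 for H3K27me3, by 10.5 Mb in CINs, 11.3 Mb in non-CINs and 10.9 Mb on average, and differed by -16.1 and -7.27 Mb for H3K27ac. On the autosomes alone the H3K27me3 differences were 9.38 and 10.02 Mb, with a mean of 9.70 Mb, and the H3K27ac differences -16.0 and -7.38 Mb. Peaks off the assembled chromosomes, which hold unplaced sequence, differed by -47 and -7 for H3K27me3, with a mean of -27, and by 2 and 13 for H3K27ac, with a mean of 7.5.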

How the results depend on the processing

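Of 125 alternative values, 76 stayed within a tolerance, 46 moved past it and 3 reversed. The tolerance was a factor of 1.5 for counts and ratios, 1 SD over regions or lists for medians, and for shares the 95% Wilson interval, which is far narrower. The reversals were all in the ratio of replicate 2 only to replicate 1 only regions (0.678), which became 1.27 without merged peaks under 400 bp, 2.04 without CIN replicate 2 and 1.42 without non-CIN replicate 2. Leaving out a list relaxes the rule for its replicate number to 1 list, which raises that number's count by construction, while the first reversal shows that the larger set depended on short peaks. Requiring −log10 q of at least 4 gave 1924, 1816 and 4156 regions for replicate 1 only, replicate 2 only and all 4 lists, with 0.312% and 7.98% of the first 2 on X. Without peaks under 400 bp, replicate 1 only held 2832 regions, 0.459% of them on X. With an equal number of the strongest peaks from each list, 10.01% of replicate 2 only regions were on X.

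With the replicate block crossed, so that CIN replicate 1 was set with non-CIN replicate 2, the sets held 295 and 267 regions, with 6.10% and 4.49% on X. The 2 populations share only the replicate number in the labels, which do not say whether samples with the same number came from the same pool. The study compared CIN with non-CIN peaks within each replicate. Leaving out 1 list at a time gave 7062 to 17982 replicate 1 only, 5769 to 14407 replicate 2 only and 8774 to 10488 4-list regions, where a lone list then stood for its number. X shares ran from 0.802 to 1.42% and from 8.34 to 9.64%, and the ratio from 0.321 (without CIN replicate 1) to 2.04.

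For replicate 1 only, replicate 2 only and 4-list regions, any overlap with a promoter gave 3.54%, 9.65% and 37.9%, and a window of 2 kb and 500 bp gave 4.86%, 12.03% and 20.7%, with 186 and 531 genes for the first 2. Soft-masking over whole regions passed 50% in 19.4%, 2.18% and 2.203%. Against 4-list domains of at least 2 kb, 17.0% and 31.4% of the replicate sets lay within 10 kb, and without X 39.0% of replicate 2 only regions did. H3K27ac peaks with −log10 q of at least 4 met 6.95% of replicate 2 only and 17.0% of 4-list regions. Among regions from 500 bp to under 1 kb, chosen after seeing the data as was leaving out X, replicate 2 only and 4-list regions were centred in a promoter in 6.18% and 7.46%, masked in 4.69% and 16.04% and met by H3K27ac in 8.72% and 9.83%. The causes were not tested.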
